A study of Anguilla anguilla with 12 samples.

Results

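The 8 genes described here are a set of cyclins: the B cyclins ccnb1, ccnb2 and ccnb3, the A cyclin ccna1, the cyclin J-like gene LOC118236341, the G cyclins ccng1 and ccng2, and the I cyclin ccni. They were taken by their gene name from the count tables, which list 31061 genes, and each name matched 1 row. RNA was sequenced from 4 groups of 3 libraries of European eel (Anguilla anguilla): eggs stripped after injection of progesterone (P), eggs stripped after injection of DHP, which stands for the steroid 17α,20β-dihydroxy-4-pregnen-3-one, oocytes taken just before the DHP injection and oocytes taken just before the P injection. P is an upstream precursor of DHP, which carries a hydroxyl group that P lacks and another in place of a ketone of P. DHP is the steroid that is routinely used to induce final maturation and ovulation in this species. All females were wild type by label and had been feminized with estradiol as elvers. After a simulated migration they received an implant of methyltestosterone and estradiol. They were then brought to maturity with weekly injections of carp pituitary extract, so these treatments were shared by all 4 groups. Each steroid was given at 2 mg per kg, and 3 of the females injected with each steroid were sequenced. Others died after the injection, so the libraries stand for females that survived and released eggs. Egg release was checked between 11 and 18 h after the injection. Each oocyte sample held 20 oocytes picked under a microscope from a cannula biopsy, and oocytes and eggs came from the same females, so time, ovulation and the injection itself cannot be told apart. The design holds no eggs of females without an injection.

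Cyclins are regulatory subunits that switch on cyclin-dependent kinases. Cyclin B bound to Cdk1 forms the maturation-promoting factor, which drives the oocyte out of its prophase arrest, through breakdown of the germinal vesicle and on to metaphase of the second meiotic division, where the ovulated egg waits for the sperm. In fish, stored cyclin B mRNA is translated during maturation, and cyclins A and B are destroyed at the end of each division by the anaphase-promoting complex. The libraries were made from polyadenylated RNA. Longer poly(A) tails and more transcript therefore cannot be told apart in these counts.

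The libraries held 6612347 to 9903122 counted fragments each. The markers of oocytes and eggs, which include the zona pellucida genes, gdf9 and bmp15, summed to 1252 to 1548 CPM (counted fragments scaled to a common library size) in eggs after P, 1360 to 2128 CPM in eggs after DHP, 2400 to 3813 CPM in oocytes before DHP and 2474 to 2855 CPM in oocytes before P. Within this list, ddx4 and dnd1 were higher in eggs. Mean ddx4 was 125 CPM in eggs after P and 154 CPM in eggs after DHP, against 7.14 CPM in oocytes before DHP and 4.23 CPM in oocytes before P. Mean dnd1 was 23.8 CPM in eggs after P and 27.8 CPM in eggs after DHP, against 0.314 CPM in oocytes before DHP and 0.579 CPM in oocytes before P. The markers of follicle cells, the somatic cells around the oocyte, summed to 0.166 to 1.68 CPM in eggs after P and 0.503 to 21.0 CPM in eggs after DHP, against 667 to 1100 CPM in oocytes before DHP and 1095 to 1407 CPM in oocytes before P. The oocyte samples thus carried follicle cell RNA, and the eggs carried little of it. In such bulk samples, fewer cells of a type and less RNA per cell cannot be told apart. CPM are given after scaling by the trimmed mean of M-values (TMM), whose factors were 0.723 to 0.857 in eggs and 1.22 to 1.34 in oocytes. Library numbers are those of the deposited tables, and the edgeR p-values rest on the spread between the 3 females of a group. In the comparisons of eggs with oocytes, the main fits did not use that both groups came from the same females.

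The 8 cyclins split into 4 genes that were higher in eggs (ccnb1, ccnb2, ccna1 and LOC118236341) and 4 that were lower (ccnb3, ccng1, ccng2 and ccni). After P, 4 cyclins rose and 4 fell at an adjusted p under 0.01, where 17.9% of the 15348 genes tested rose and 22.7% fell. After DHP, 4 rose and 3 fell, where 7.35% of the 15149 genes tested rose and 6.22% fell. All 8 were tested in each comparison. Egg and oocyte libraries did not overlap for any of the 8 genes after either steroid, which held for 64.8% of all genes after P and for 50.7% after DHP. Between eggs after P and eggs after DHP, and between the oocytes taken before both injections, 0 of the 8 genes passed the threshold in edgeR.

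**Figure D1:**
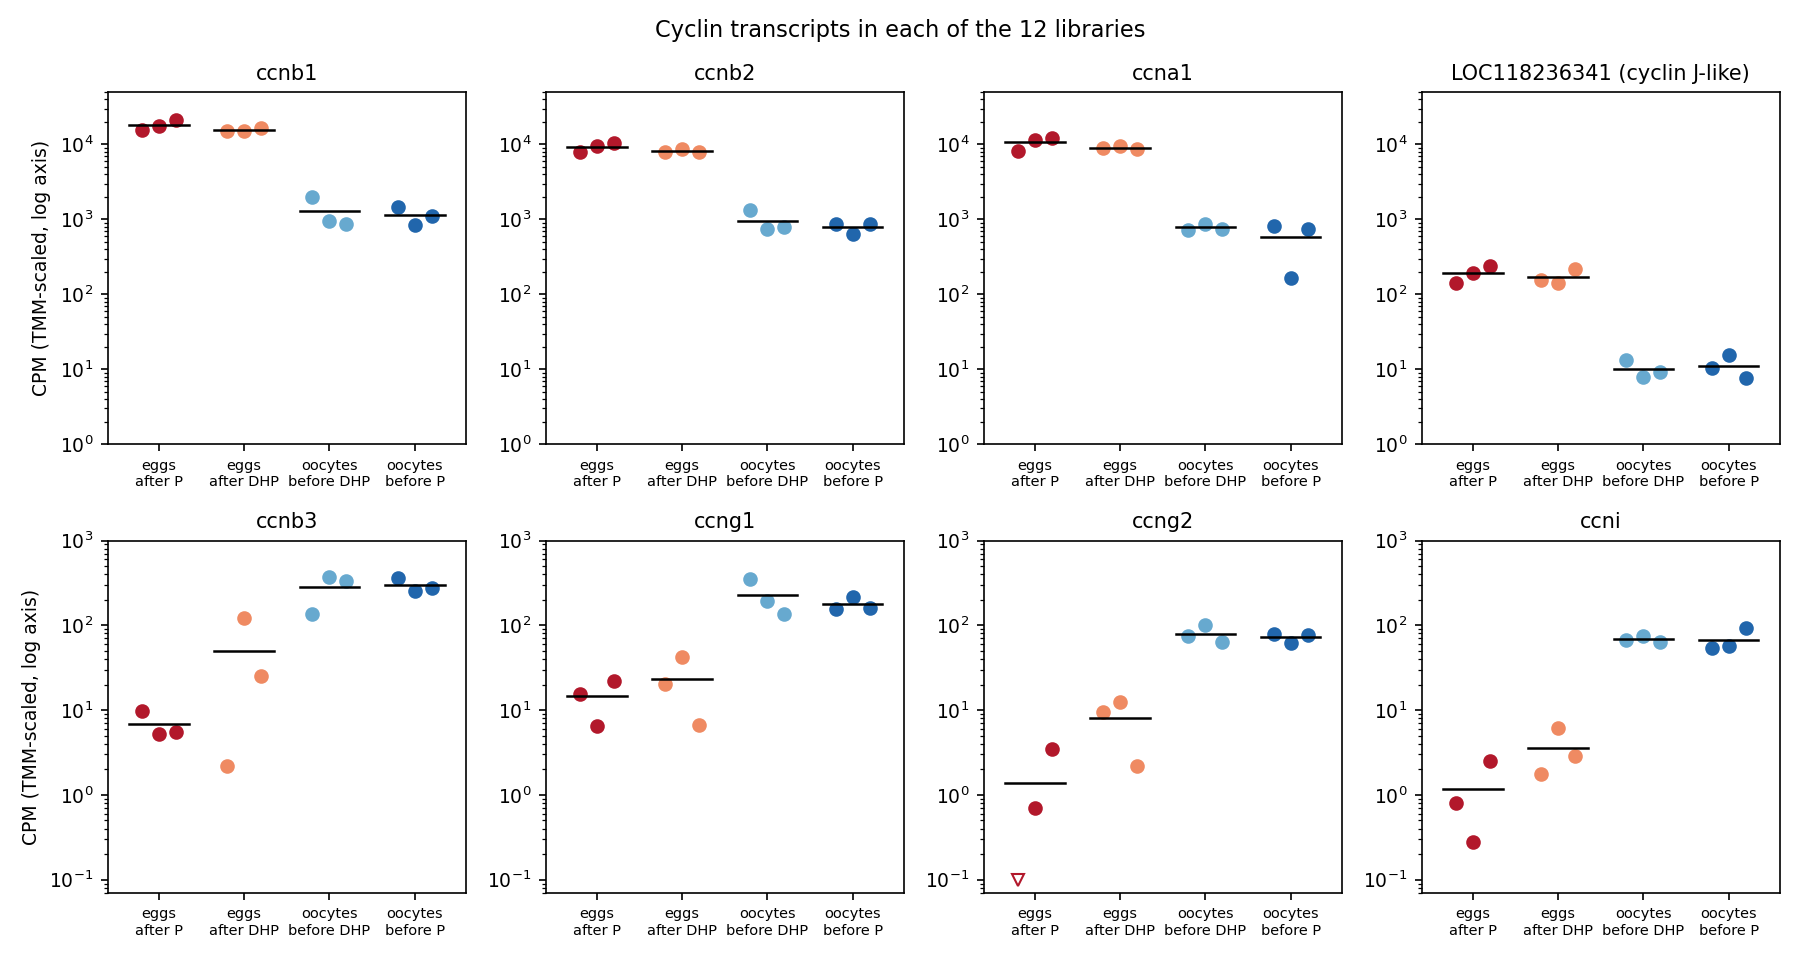
Each point is 1 library, in CPM after TMM scaling on a log axis, and black lines are means of 3 libraries. The 4 genes in the upper row were higher in all 6 egg libraries than in all 6 oocyte libraries, the 4 in the lower row were lower, and the open triangle marks the library with 0 counts of ccng2, drawn at the foot of the axis.

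Cyclin B1, the regulatory subunit of the maturation-promoting factor, was the transcript with the most fragments in each of the 6 egg libraries. Its gene ccnb1 had 15350, 17671 and 20895 CPM in eggs after P and 14981, 15023 and 16598 CPM in eggs after DHP. In oocytes it had 2009, 962 and 858 CPM before DHP and 1449, 847 and 1119 CPM before P. The lowest egg value thus lay 7.46-fold above the highest oocyte value, and library 3 was the highest of the oocytes. Eggs exceeded oocytes by a log2 fold change of 3.96 ± 0.29 after P (15.6-fold; SE; edgeR, adjusted p = 1.53e-05) and 3.54 ± 0.37 after DHP (11.6-fold; adjusted p = 0.00166). Within the females, read as the libraries with consecutive numbers, the rise was 10.6-fold to 20.9-fold after P and 7.46-fold to 19.3-fold after DHP.

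Cyclin B2, another B cyclin that pairs with Cdk1, followed the same order with fewer fragments. The ccnb2 transcript had 7846, 9550 and 10445 CPM in eggs after P and 7957, 8709 and 8010 CPM in eggs after DHP, against 1323, 735 and 781 CPM in oocytes before DHP and 857, 639 and 861 CPM in oocytes before P. As for ccnb1, library 3 was the highest of the oocytes and remained far below all eggs. On the log2 scale, eggs were higher by 3.54 ± 0.25 after P (11.6-fold; edgeR, adjusted p = 1.47e-05) and 3.05 ± 0.30 after DHP (8.26-fold; adjusted p = 0.00153).

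Cyclin A1 is the A cyclin of the germ line, and in the frog it is the maternal A cyclin of the egg. The ccna1 transcript had 8081, 11472 and 12279 CPM in eggs after P and 8978, 9637 and 8574 CPM in eggs after DHP. Oocytes had 719, 873 and 752 CPM before DHP and 822, 164 and 754 CPM before P. Library 5 stood apart among the oocytes, with 2176 fragments where the other oocyte libraries had 7001 to 9134. The log2 fold change was 4.17 ± 0.55 after P (18.03-fold; edgeR, adjusted p = 0.000210) and 3.69 with library 5 left out (adjusted p = 0.000112). After DHP it was 3.46 ± 0.25 (11.02-fold; edgeR, adjusted p = 0.000688), the smallest p of the 15149 genes tested in that comparison. The 3 females injected with DHP gave close values, with a rise of 11.04-fold to 12.5-fold.

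The cyclin J-like gene LOC118236341 had the fewest fragments of the cyclins that rose. Cyclin J is best known from the fruit fly, where it is a cyclin of the ovary and the early embryo. LOC118236341 had 142, 194 and 236 CPM in eggs after P and 153, 144 and 216 CPM in eggs after DHP, against 13.5, 7.92 and 9.19 CPM in oocytes before DHP and 10.5, 15.4 and 7.76 CPM in oocytes before P. The oocyte values rest on 67 to 204 fragments per library and the egg values on 949 to 1424. On the log2 scale, the rise was 4.06 ± 0.36 after P (16.6-fold; edgeR, adjusted p = 2.97e-05) and 3.996 ± 0.401 after DHP (15.96-fold; adjusted p = 0.00153). After P, 128 of the genes tested had a higher log2 fold change than ccna1, 150 had a higher one than LOC118236341, 178 than ccnb1 and 281 than ccnb2. After DHP, 44 of the genes tested had a higher log2 fold change than LOC118236341, 84 had a higher one than ccnb1, 99 than ccna1 and 219 than ccnb2.

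Together, ccnb1, ccnb2 and ccna1 took up 2.59%, 2.89% and 3.15% of all counted fragments in eggs after P and 2.73%, 2.47% and 2.59% in eggs after DHP. In oocytes the share was 0.494%, 0.329% and 0.309% before DHP and 0.408%, 0.221% and 0.343% before P. These shares do not depend on the scaling, and their 95% Wilson intervals, which cover counting error only, were within 0.0119 percentage points of the value. The lowest egg share was 5.003-fold the highest oocyte share. By number of fragments, ccnb1 ranked first in each of the 6 egg libraries, ccna1 ranked 2 to 4 and ccnb2 ranked 4 to 6, among 31061 genes. In the oocytes ccnb1 ranked 14 to 66 and ccnb2 35 to 84, and ccna1 ranked 55 to 89 apart from rank 860 in library 5. Ranks by fragments favour long transcripts, and transcript lengths were not used here.

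The eggs were also more uniform than the oocytes in ccnb1. Its coefficient of variation was 15.5% in eggs after P and 5.94% in eggs after DHP, against 49.9% in oocytes before DHP and 26.5% in oocytes before P. For ccnb2 it was 14.2% in eggs after P and 5.11% in eggs after DHP, against 34.6% in oocytes before DHP and 16.1% in oocytes before P. For ccna1 it was 21.0% in eggs after P and 5.92% in eggs after DHP, against 10.3% in oocytes before DHP and 62.4% in oocytes before P. The last value includes the low library 5. Within each steroid the eggs were thus more uniform in ccna1 too, although oocytes before DHP varied less than eggs after P. The difference in spread was not tested.

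The ratio of ccnb1 to ccnb2 fragments within a library needs no scaling between libraries. It was 1.96, 1.85 and 2.00 in eggs after P and 1.88, 1.72 and 2.07 in eggs after DHP, against 1.52, 1.31 and 1.10 in oocytes before DHP and 1.69, 1.33 and 1.30 in oocytes before P. All 6 egg libraries lay above all 6 oocyte libraries, but the gap between the lowest egg (1.72) and the highest oocyte (1.69) was small. The mean log2 ratio was 0.49 higher in eggs, a 1.40-fold higher ratio (two-sided exact permutation test within steroids, p = 0.005, the smallest that its 400 arrangements allow; adjusted p = 0.01 over 2 ratios). The ratio rose in 6 of 6 females. The sign-flip test of these pairs, also exact, gave p = 0.0312, the smallest that its 64 arrangements allow. The adjusted p of this exact test was 0.0625, which missed 0.05. Because the ratio of ccna1 to ccnb1 did not pass the exact sign-flip test, the adjusted value could not go below 0.05 here. Missing 0.05 is thus no evidence against a higher ratio in eggs. Within a steroid, the exact permutation test of 3 against 3 libraries cannot go below p = 0.1, and both gave 0.1, with differences of 0.44 for P and 0.54 for DHP. The ratio of ccna1 to ccnb1 was 0.588 ± 0.061 in eggs after P and 0.586 ± 0.064 in eggs after DHP, against 0.714 ± 0.309 in oocytes before DHP and 0.478 ± 0.252 in oocytes before P (SD, n = 3 each). The difference of 0.15 in its mean log2 ratio did not pass the exact permutation test (p = 0.71).

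**Figure D2:**
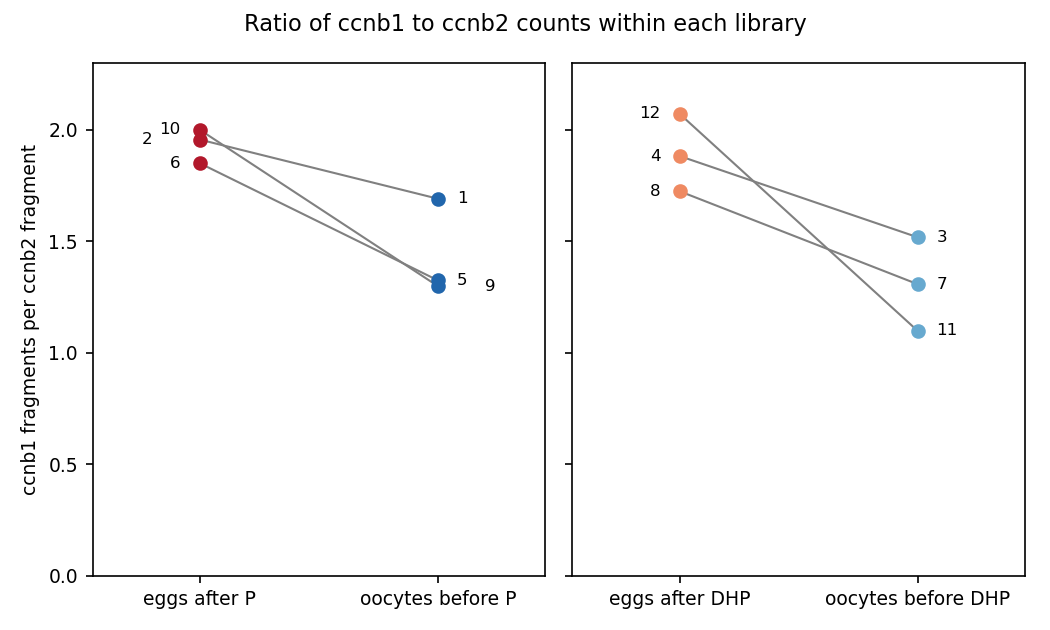
The y axis gives ccnb1 fragments per ccnb2 fragment in each library, with eggs on the left and oocytes on the right of each panel, numbers naming the libraries and lines joining the libraries read as 1 female. All 6 lines fall toward the oocytes, whose ratios were 1.10 to 1.69, against 1.72 to 2.07 in eggs.

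Cyclin B3 differed from the other B cyclins in direction. In the mouse, it is needed for oocytes to leave the first meiotic metaphase. The ccnb3 transcript had 9.80, 5.19 and 5.46 CPM in eggs after P, against 364, 255 and 276 CPM in oocytes before P, and the log2 fold change was -5.46 ± 0.36 (44.0-fold lower; edgeR, adjusted p = 1.45e-05). In eggs after DHP it had 2.19, 123 and 25.0 CPM in libraries 4, 8 and 12, against 137, 372 and 333 CPM in oocytes before DHP (libraries 3, 7 and 11). The eggs after DHP thus spread 56.0-fold, from 16 to 811 fragments, and library 8 came close to oocyte library 3. The log2 fold change after DHP was -2.58 ± 1.03 and did not pass the threshold (edgeR, adjusted p = 0.0773). Without library 8 it was -4.40 ± 0.98 (edgeR, adjusted p = 0.0117), and with the females as a block it was -3.72 (edgeR, adjusted p = 0.0101), both just above 0.01. DESeq2 gave an adjusted p of 0.0165. Within each of the 3 females injected with DHP, ccnb3 was lower in eggs, by 3.03-fold to 62.8-fold.

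Relative to ccnb1, the loss of ccnb3 was wider still. Oocytes before DHP held 0.0684, 0.387 and 0.388 ccnb3 fragments per ccnb1 fragment, and oocytes before P held 0.251, 0.300 and 0.246. The ratio in eggs was 0.000261 to 0.000638 after P and 0.000146 to 0.00817 after DHP, so the highest egg ratio was below the lowest oocyte ratio. That separation follows from the values of both genes, as all eggs lay above all oocytes in ccnb1 and below them in ccnb3. The ratio was not tested.

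The G and I cyclins are atypical cyclins that do not drive division in the way cyclins A and B do. Cyclin G1 is a target of p53 in mammals. Its gene ccng1 had 15.5, 6.45 and 22.0 CPM in eggs after P and 20.3, 42.4 and 6.71 CPM in eggs after DHP, against 352, 191 and 137 CPM in oocytes before DHP and 155, 215 and 161 CPM in oocytes before P. All eggs lay below all oocytes, with library 8 the highest of the eggs and library 3 the highest of the oocytes. The log2 fold change was -3.62 ± 0.43 after P (12.3-fold lower; edgeR, adjusted p = 0.000129) and -3.38 ± 0.64 after DHP (10.4-fold lower; adjusted p = 0.00556). Without library 8, the value after DHP was -4.12.

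Cyclin G2 has been linked to arrest of the cell cycle in mammals. The ccng2 transcript was counted 0, 5 and 21 times in eggs after P and 70, 82 and 13 times in eggs after DHP, against 842, 849 and 662 times in oocytes before DHP and 875, 816 and 706 times in oocytes before P. Egg library 2, the lowest, held 0 fragments among 9126910, which allows a share of up to 3.29e-05% (3 counts), so ccng2 was at least 198-fold lower there than in oocyte library 1. Eggs differed from oocytes by a log2 fold change of -5.77 ± 0.87 after P (edgeR, adjusted p = 0.000437) and -3.39 ± 0.59 after DHP (10.4-fold lower; adjusted p = 0.00424). In the other 2 females injected with P the fall was 21.9-fold and 87.8-fold. The fitted log2 fold change after P was -7.66 without library 10 and -5.13 without library 2.

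Cyclin I binds Cdk5 in mammals. The ccni transcript had 6, 2 and 15 fragments in eggs after P and 13, 41 and 17 in eggs after DHP. Oocytes held 746, 639 and 660 fragments before DHP and 592, 754 and 853 before P, so egg and oocyte values were far apart. In edgeR, the log2 fold change was -5.88 ± 0.65 after P (58.8-fold lower; edgeR, adjusted p = 8.24e-05) and -4.32 ± 0.53 after DHP (adjusted p = 0.00191). It was -6.92 after P without library 10, and -4.93 after DHP without library 8.

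The calls of the 3 genes that fell after DHP depended on single libraries, while their direction did not. Without library 12, 0 of the 3 passed, without library 4, 7 or 11 it was 1, without library 3 it was 2 and without library 8 it was 3. The number of all genes called also fell in these smaller fits. The 4 genes that rose after DHP, and all 8 after P, passed with each library left out in turn.

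**Figure D3:**
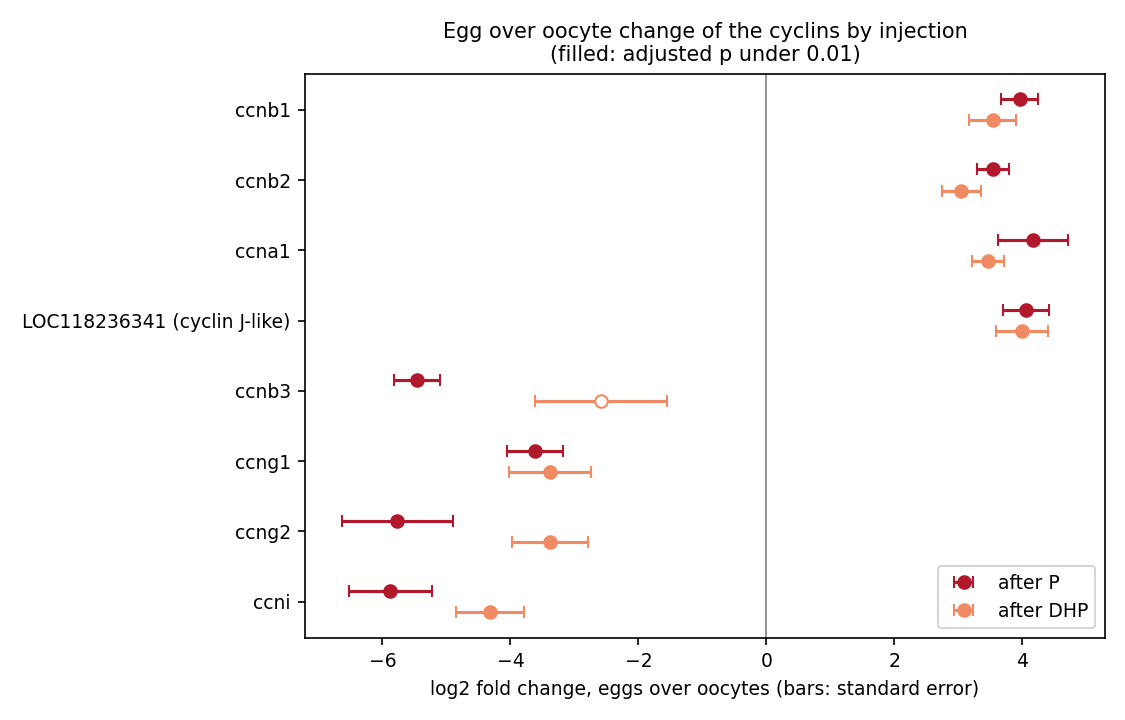
The x axis gives the log2 fold change of eggs over oocytes from edgeR, for P (dark red) and DHP (orange). Bars are standard errors derived from the F statistic of the test, and filled points have an adjusted p under 0.01. The 4 genes that rose had values from 3.05 to 4.17, the others lay from -2.58 to -5.88, and the open point is ccnb3 after DHP.

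Like the cyclins that fell, the markers of follicle cells were lower in eggs than in oocytes. Of the 12 follicle cell markers, 10 of the 11 tested fell after P and 8 of the 9 tested fell after DHP. Over all genes tested, 22.7% fell after P and 6.22% fell after DHP. The median log2 fold change of these markers was -10.13 after P and -7.36 after DHP, against -0.26 and -0.20 over all genes tested. Of the oocyte and egg markers, 18 of 33 tested fell after P and 10 of 33 after DHP, while 2 rose after each steroid. Their median was -1.71 after P and -1.86 after DHP. In eggs after P, 9 of the 12 follicle cell markers were at 0 in all 3 libraries, among them the receptors fshr and lhcgr, and foxl2a, star, inha and hsd17b1. Library 8 had the highest sum of the eggs after DHP (21.0 CPM, against 2.74 CPM in library 4 and 0.503 CPM in library 12), and 3 of its 12 markers were at 0. It was also the highest of the eggs after DHP in ccnb3, ccng1, ccng2 and ccni. The markers of vessels and stroma had the same top library, at 27.7 CPM in library 8, against 3.83 and 15.3 CPM in libraries 4 and 12. Among eggs after P, 9 to 11 of the 12 follicle cell markers were at 0 in each library. The order of their sums there cannot be read. Library 10 had a follicle cell marker sum of 0.166 CPM and the highest ccng1 (22.0 CPM), ccng2 (3.48 CPM) and ccni (2.48 CPM) of the eggs after P. The highest ccnb3 of that group was in library 2 (9.80 CPM). The part of follicle cells in the oocyte levels of these 4 cyclins was not tested.

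**Figure D4:**
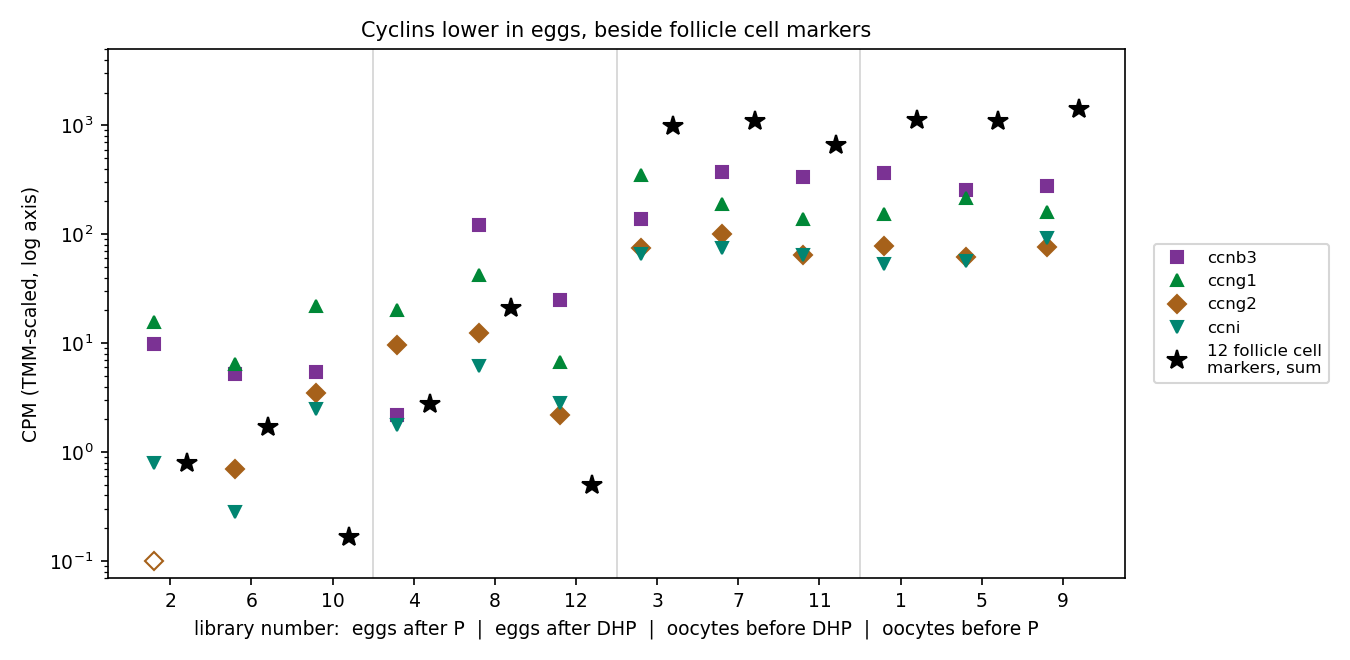
Coloured symbols give CPM of ccnb3, ccng1, ccng2 and ccni in each library on a log axis, stars give the summed CPM of 12 follicle cell markers, and the open symbol marks 0 counts of ccng2. Among the eggs, library 8 had the highest marker sum (21.0 CPM) and the highest value of each of the 4 cyclins, while all oocytes had marker sums of 667 CPM or more.

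Whether both steroids act alike on these cyclins is the question that the design puts to the eggs. The steroids were compared as 1 pair at the same dose of 2 mg per kg, over 8 genes. Of the 13178 genes tested between eggs after P and eggs after DHP, 0 passed in edgeR (0.0%), 602 had an unadjusted p under 0.05, and DESeq2 called 9. The log2 difference of P over DHP was 0.25 for ccnb1 (95% interval from limma-voom -0.03 to 0.53), 0.21 for ccnb2 (-0.08 to 0.49) and 0.25 for ccna1 (-0.08 to 0.57). For these abundant transcripts the intervals reached at most a 1.49-fold difference. They were wider for LOC118236341 (0.20, interval -0.46 to 0.85) and ccng1 (-0.47, interval -1.96 to 1.013).

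The largest differences between the eggs were in ccnb3, ccng2 and ccni, all of which were lower after P. The edgeR log2 difference of P over DHP was -2.74 ± 0.99 for ccnb3 (unadjusted p = 0.0182), -2.51 ± 1.10 for ccng2 (0.0436) and -1.54 ± 0.87 for ccni (0.105), and the adjusted p was 0.984 for each. With no filter on low counts, ccnb3 passed (edgeR, adjusted p = 0.00495), and so did 62 other genes. The limma-voom intervals were -4.15 to 1.21 for ccnb3, -6.56 to -0.66 for ccng2 and -3.92 to 0.25 for ccni. These intervals are from another fit than the edgeR values and are not adjusted for the number of genes. The limma-voom estimate for ccnb3 was -1.47, and none of the 8 genes passed in limma-voom. The groups overlapped for all 8 genes, where 9.36% of the genes tested did not overlap.

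The change from oocyte to egg was also compared between the steroids in a fit of all 12 libraries. In edgeR, 0 of 16891 genes passed (0.0%), 700 had an unadjusted p under 0.05, and DESeq2 called 4, none of them a cyclin of this set. The difference of the log2 changes, P minus DHP, was 0.38 ± 0.43 for ccnb1, 0.44 ± 0.35 for ccnb2, 0.66 ± 0.58 for ccna1 and 0.02 ± 0.48 for LOC118236341. It was -2.95 ± 1.19 for ccnb3 (unadjusted p = 0.0262), -2.44 ± 1.09 for ccng2 (0.0409), -1.61 ± 0.81 for ccni (0.0673) and -0.30 ± 0.79 for ccng1, and the adjusted p was 1.0 for all. Library 8 was in the DHP group, and without it the log2 difference between the eggs was -0.97 for ccnb3, -2.12 for ccng2 and -0.97 for ccni. Library 8 also had the highest follicle cell markers of the eggs, and the part of follicle cells in these differences was not tested. Without library 4, which held 16 fragments of ccnb3, the log2 difference between the eggs was -3.30 for ccnb3. For ccng2 it was -1.90 without library 2, which held 0 fragments of it, and -4.39 without library 10, which held 21. For ccni it was -1.07 without library 6, which held 2 fragments, and -2.58 without library 10, which held 15. For ccng1 it was 0.12 without library 8.

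The oocytes taken before both injections are the baseline of that comparison. Of 16153 genes, 0 passed in edgeR (0.0%), 494 had an unadjusted p under 0.05, and DESeq2 called 10. The log2 difference of oocytes before DHP over oocytes before P ranged from -0.14 for LOC118236341 to 0.43 for ccna1, and the groups overlapped for all 8 genes, where 7.84% of the genes tested did not overlap. The limma-voom intervals reached from -0.65 to 0.85 for ccnb1 and from -0.38 to 1.90 for ccna1, whose value in library 5 was low. Within the oocytes before DHP, library 3 was the highest in ccnb1, ccnb2, LOC118236341 and ccng1 and the lowest in ccnb3 and ccna1. Without library 3, the difference turned to -0.32 for ccnb1, -0.04 for ccnb2 and -0.10 for ccng1.

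Of the 8 genes, 4 lie on chromosome 9 (ccng1, ccnb3, LOC118236341 and ccna1), 3 on chromosome 14 (ccnb1, ccni and ccng2) and ccnb2 on chromosome 5 of the assembly fAngAng1.pri. On chromosome 14, ccni (21073080 to 21081582) and ccng2 (21083259 to 21088720) are neighbours, 1676 bases apart, and both fell. On chromosome 9, ccng1 (4330373 to 4335746) lies 2377 bases from ccni2, a second cyclin I gene. That gene did not pass in either comparison, with a log2 fold change of -0.19 ± 0.61 after P and 0.20 ± 0.70 after DHP. On the other side of ccng1, nudcd2 lies 48 bases away and was looked up after the values were seen. It changed by -2.62 ± 0.58 after P (edgeR, adjusted p = 0.00371) and by -1.75 ± 0.61 after DHP without passing. The annotated span of ccng2 overlaps that of taf1c, a subunit of an RNA polymerase I factor, over 4559 of its 5462 bases. The sources used here do not give the strand setting of the counting, so reads of both genes may have been mixed or left out. The taf1c transcript was at -0.40 ± 0.37 after P and 0.09 ± 0.49 after DHP and did not pass. Beyond them, shroom3, which shapes epithelial cells, had -1.85 ± 0.65 after P and -2.74 ± 1.19 after DHP without passing, and atp8b1, a phospholipid flippase, rose by 1.86 ± 0.35 after P (edgeR, adjusted p = 0.00138) and had 1.22 ± 0.32 after DHP. LOC118212409, named as WD repeat-containing protein 7, did not pass in either comparison. The other neighbour, stbd1, was below the filter on low counts.

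Among the 31 other cyclin genes, 6 rose and 4 fell of 26 tested after P, and 4 rose and 0 fell of 24 tested after DHP. The median log2 fold change of the list was -0.02 after P and 0.20 after DHP, against -0.26 and -0.20 over all genes. Of all genes tested, 17.9% rose and 22.7% fell after P, and the shares of this list were near these, while 7.35% rose and 6.22% fell after DHP. The cyclin Y-like gene ccnyl1 rose by 3.46 ± 0.28 after P (edgeR, adjusted p = 2.01e-05) and 3.07 ± 0.37 after DHP (adjusted p = 0.00185). A second cyclin J-like gene, LOC118222834, rose by 5.11 ± 0.48 after P (adjusted p = 3.75e-05), and after DHP its 3.80 ± 0.98 did not pass (edgeR, adjusted p = 0.0171), although it passed with the females as a block (3.11, adjusted p = 0.00813) and with DESeq2 (3.92, adjusted p = 5.88e-05). In eggs after DHP, LOC118222834 had 29, 85 and 374 fragments in libraries 4, 8 and 12. The sources used here do not say whether reads that fit both cyclin J-like genes were counted. The gene named cyclin J, ccnj, was looked up after the values were seen and did not pass. It had -0.03 ± 0.56 after P and 0.33 ± 0.55 after DHP. Cyclin A2 had 2631 ± 543 CPM in eggs after P and 2373 ± 228 CPM in eggs after DHP, against 465 ± 114 CPM in oocytes before DHP and 462 ± 183 CPM in oocytes before P. Its gene ccna2 rose after both steroids, by 2.49 ± 0.34 after P and 2.28 ± 0.28 after DHP, a smaller log2 change than that of ccna1, although the difference between both genes was not tested. Among those that fell after P were ccnp (-2.33 ± 0.26) and ccny (-2.41 ± 0.56), although ccny did not pass with limma-voom (-2.20, adjusted p = 0.0185). After DHP, ccny did not pass (-0.89 ± 0.69), and ccnp had -2.08 ± 0.55 (edgeR, adjusted p = 0.0183) but passed with the females as a block (-2.24, adjusted p = 0.00484), with limma-voom, with DESeq2 and with library totals.

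Of the 20 genes of the kinase side, which are cyclin-dependent kinases and the enzymes that switch Cdk1 on and off, 7 rose and 3 fell of 16 tested after P, and 6 rose and 0 fell of 17 tested after DHP, with a median log2 fold change of 0.97 after P and 0.80 after DHP. The background was 17.9% rising and 22.7% falling with a median of -0.26 after P, and 7.35% rising and 6.22% falling with a median of -0.20 after DHP. The phosphatases that activate Cdk1 were among the clearest: cdc25b had 296 ± 76 CPM in eggs after P and 235 ± 89 CPM in eggs after DHP, against 4.92 ± 3.72 CPM in oocytes before DHP and 4.13 ± 1.66 CPM in oocytes before P. Its log2 fold change was 6.13 ± 0.41 after P (edgeR, adjusted p = 1.45e-05) and 5.49 ± 0.63 after DHP (adjusted p = 0.00184). LOC118222606, named as an M-phase inducer phosphatase, rose by 3.22 ± 0.25 after P and 3.02 ± 0.37 after DHP. The polo-like kinase plk1, which acts upstream of these phosphatases, rose by 2.99 ± 0.27 after P and 2.63 ± 0.31 after DHP. The rise was not limited to activators. The gene wee2, named as an oocyte meiosis inhibiting kinase, was looked up after the values were seen. It rose by 2.65 ± 0.25 after P (edgeR, adjusted p = 3.75e-05) and 2.27 ± 0.37 after DHP (adjusted p = 0.00364). The kinases mastl (-1.27 ± 0.24), which protects the substrates of Cdk1 from dephosphorylation, and cdk7 (-1.17 ± 0.27), which activates Cdk1, fell after P. So did cdk1 itself, the partner of the B cyclins, which was looked up after the values were seen. It had 73.7 ± 11.6 CPM in eggs after P and 79.2 ± 51.4 CPM in eggs after DHP, against 163 ± 44 CPM in oocytes before DHP and 176 ± 54 CPM in oocytes before P, and changed by -1.28 ± 0.30 after P (edgeR, adjusted p = 0.00460) and -1.13 ± 0.46 after DHP (adjusted p = 0.0858, not passing). The rise of ccnb1, ccnb2 and ccna1 thus stood beside a lower cdk1 in eggs after P. The kinase gene cdk2 of the same list, also looked up after the values were seen, went the other way. It rose by 1.61 ± 0.23 after P (edgeR, adjusted p = 0.000364) and 1.34 ± 0.27 after DHP (adjusted p = 0.00683).

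Of the 25 genes that act in the destruction of cyclins by the anaphase-promoting complex, 4 rose and 6 fell of 23 tested after P, and 2 rose and 2 fell of 24 tested after DHP, with a median log2 fold change of -0.13 after P and 0.08 after DHP. Over all genes tested, 17.9% rose and 22.7% fell after P, and 7.35% rose and 6.22% fell after DHP, so the shares of this list were near the background. The median over all genes was -0.26 after P and -0.20 after DHP. The genes that rose after both steroids were cdc20, an activator of the complex, and LOC118233086, an F-box only protein 43-like gene. The vertebrate protein of that name, also known as Emi2, inhibits the complex and keeps the egg at metaphase. The cdc20 transcript had 11078 ± 3043 CPM in eggs after P and 9743 ± 2276 CPM in eggs after DHP, against 3440.4 ± 1008 CPM in oocytes before DHP and 3173 ± 1279 CPM in oocytes before P. It rose by 1.78 ± 0.33 after P (edgeR, adjusted p = 0.00142) and 1.42 ± 0.30 after DHP (adjusted p = 0.00797), and LOC118233086 rose by 1.66 ± 0.24 after P and 1.42 ± 0.27 after DHP. The subunit anapc13 fell by 3.58 on the log2 scale after P and by 2.71 after DHP, and anapc7 fell by 1.67 after P and by 1.52 after DHP. Of the genes for the activator Fzr1, fzr1b fell by 3.31 after P (edgeR, adjusted p = 9.88e-05) and had -2.01 ± 0.70 after DHP without passing. Its paralogue fzr1a, looked up after the values were seen, had -0.58 ± 0.53 after P and -1.25 ± 0.61 after DHP and did not pass. With library totals in place of TMM, cdc20 had 1.03 after P (edgeR, adjusted p = 0.0125) and 0.80 after DHP (0.0445), and LOC118233086 had 0.80 after DHP (0.0253), and these no longer passed.

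The scaling set the level from which all these changes were read. With library totals in place of TMM, the median change over all genes tested, as log2 fold change, was -1.01 after P, against -0.26 with TMM, and -0.80 after DHP, against -0.20 with TMM, and 1295 genes rose and 5205 fell after P, where TMM gave 2744 and 3483. After DHP, totals gave 490 genes that rose and 2105 that fell, where TMM gave 1114 and 943. The log2 fold change of ccnb1 was then 3.21 after P and 2.94 after DHP, and that of ccnb3 -6.19 after P and -3.26 after DHP. Of the cyclin destruction genes, totals gave 1 that rose and 9 that fell after P and 0 and 2 after DHP, and of the other cyclins 5 and 6 after P and 3 and 2 after DHP. Of the kinase side, totals gave 6 and 5 after P and 5 and 1 after DHP. None of the 8 cyclins changed direction or its call in the comparisons of eggs with oocytes.

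The genes whose profile over the 12 libraries was most like that of each cyclin were sought among 11156 genes, by the root-mean-square difference of log2 CPM after each gene's mean was subtracted. All points share the split into eggs and oocytes, and the genes named here are a description. Closest to ccnb1 were enoph1 (0.21), ash2l (0.26) and the pannexin-1-like gene LOC118210151 (0.27). For ccnb2 they were kif22, a kinesin that moves chromosomes (0.15), LOC118206611, which is not characterized (0.20), and LOC118222230, a hyaluronan mediated motility receptor-like gene (0.21). LOC118236341 was closest to dennd6aa (0.31), setd1a (0.33) and tpx2, which nucleates spindle microtubules (0.35). The profile of ccna1, with its low library 5, had more distant neighbours, namely LOC118231305 (0.44), LOC118218216 (0.51) and zdhhc15b (0.53).

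The cyclins that fell had less close neighbours than ccnb1, ccnb2 and LOC118236341. For ccnb3 they were dnajc19 (0.41), btf3 (0.44) and si:dkeyp-121d2.7, a zinc finger gene (0.55). For ccng1 they were LOC118234515, named as a BMP and activin membrane-bound inhibitor (0.39), stk25a (0.48) and ptpn6 (0.51). Closest to ccng2 were ankmy2a (0.52), LOC118215810 (0.58) and oxr1a (0.73), and closest to ccni were vps35, a retromer subunit (0.41), and the ribosomal protein genes LOC118216041 (0.46) and LOC118206752 (0.53).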

How the data were processed

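RNA of 12 samples in 4 groups was sequenced from stranded poly(A) libraries. The authors aligned the reads with TopHat2 2.0.13 to fAngAng1.pri, removed secondary alignments with SAMtools 1.2 and counted fragments per gene with HTSeq 0.6.1p1, and these deposited counts were used here. The deposited tables also hold the fold changes and p-values that the authors made with DESeq, which were not used. The 12 columns were given their group from the labels, and 0 such columns stayed unused. Counts were compared with the quasi-likelihood test of edgeR 4.0.16 (TMM scaling, minimum count of 10, minimum total of 15) in R 4.3.3, in fits of the 6 libraries of each pair of groups, and calls had a Benjamini-Hochberg adjusted p under 0.01 over all genes tested. The standard errors beside edgeR values were derived from the log2 fold change and the F statistic of that test, which gives none itself. Intervals came from limma 3.58.1, and DESeq2 1.42.0 was a further test. The programs were tested on simulated data.

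The samples of both stages came from the same females. The tables do not name the female, and libraries with consecutive numbers were read as pairs, since their deviations from the group means had r of 0.268 to 0.405 over 16891 genes, against -0.290 to -0.0637 for the other combinations. Deviations from a group mean balance out within the group, so the negative r of the other combinations is partly built in. The pairs entered as a block in an alternative fit. Other alternatives were RLE scaling, library totals, other filters, 1 fit of all libraries, an adjusted p under 0.05 and each library left out.

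The genes named beside the 8 cyclins were up to 2 per direction and steroid with the smallest p in each list, the 3 closest profiles among genes averaging 50 or more normalized counts, and the neighbours of ccng2 and ccni. The cyclins and the lists were chosen with earlier results of these data known. Positions and names came from RefSeq, in which 29999 of 29999 gene IDs were found.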

Additional observations from a re-analysis of the deposited data

How the results depend on the processing

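The direction of all 8 cyclins between eggs and oocytes was the same under every alternative that was run. Counts of all genes called moved more. After DHP, 1114 genes rose and 943 fell; DESeq2 gave 2254 and 2212, the fit of all 12 libraries 1970 and 1618, library totals 490 and 2105, and an adjusted p under 0.05 gave 2390 and 2755. With each library left out in turn, 65 to 976 rose and 57 to 961 fell, and 0 to 3 of the 8 cyclins fell. After P, 1295 genes rose with library totals. Between eggs after P and eggs after DHP, DESeq2 called 6 genes higher and 3 lower, the fit with no filter 21 and 42, with 1 of the 8 cyclins lower (ccnb3), and the replicate block 1 higher; with a library left out 0 to 2 were higher. Between the oocytes, DESeq2 called 5 higher and 5 lower, the replicate block 1 lower, and 0 to 2 were lower with a library left out. DESeq2 called 4 genes lower in the difference of the changes. The cause of these shifts was not tested.

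The replicate block left the log2 difference in the ratio of ccnb1 to ccnb2 at 0.49. Its exact sign-flip test gave an adjusted p of 0.0625, with the unadjusted value at the smallest that this test allows. The replicate block changed no call of the 8 cyclins. With the DHP arm alone the difference was 0.54 and with the P arm alone 0.44, where 3 against 3 libraries cannot pass. For ccna1 to ccnb1 it was -0.17 in the DHP arm alone and -0.13 to 0.32 with a library left out. With a library left out, ccng1 between the eggs ranged from -0.99 to 0.12, and between the oocytes ccnb1 ranged from -0.32 to 0.37, ccnb2 from -0.042 to 0.43 and ccng1 from -0.10 to 0.61. Levels per transcript length were not run, as transcript lengths were not used here. Depth limits the genes that fell: ccni and ccng2 rest on 0 to 82 fragments per egg library.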
